A study of Mus musculus with 9 samples.

Results

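Transcripts of macrophages, monocytes and dendritic cells were followed in RNA of regulatory T cells (Tregs) sorted from the lamina propria, the connective tissue layer of the gut mucosa. The members were a list of 38 marker genes of myeloid cells without class II genes. They were chosen for their known use in these cells, but with earlier results of these data known, so counts on the list are descriptive. Each was read from the brightest array feature that the platform annotation assigns to that gene alone. Of the 38 genes, 37 had such a feature, out of 22180 genes on the array. The dendritic cell receptor gene Clec9a had none, because its feature is shared with Clec1b. By role, 13 members on the array were macrophage genes, 8 monocyte and inflammatory genes, 8 dendritic cell genes and 8 genes shared by most myeloid cells. The study held 9 Affymetrix Gene ST2.0 arrays of C57BL/6 mice, with 3 arrays for each of the genotypes wild type (WT), Y3 and Y3/CD103-/-. In all groups the cells came from small and large intestine together and were sorted by a Foxp3-linked red fluorescent reporter, which every group therefore carries. The labels do not describe Y3. The series title refers to IL-2Rβ, a chain of the IL-2 receptor, and to CD103, an integrin chain whose gene is Itgae. No group lacked CD103 alone, no age is stated in the labels, and nothing says whether an array held 1 animal or a pool, so p-values measure only the spread between these arrays.

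Macrophages and dendritic cells are the phagocytes of the lamina propria. Macrophages depend on the growth factor receptor encoded by Csf1r, take up dying cells and microbes, and make the complement component C1q and apolipoprotein E. Conventional dendritic cells depend instead on Flt3, are marked by the transcription factor Zbtb46, include a cross-presenting subset that needs Batf3, and carry antigen to lymph nodes, where they meet T cells. Several members are also used by T or NK cells, namely Batf3, Cd68, Cst3, Ctss, Itgax, Fcer1g, Tyrobp, Cx3cr1 and Lst1.

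The promoters of 4 macrophage members are shown. The first 3 are those with a match to AGGAAGT among the 9 macrophage genes that lay lower on every Y3 array than on every WT array, and the other is that of Cd68, which lay higher. Sequences are the 250 bases before the RefSeq start on build GRCm38.p6, written 5′ to 3′ along the gene. Capitals mark matches on either strand to AGGAAGT, the core bound by PU.1, the myeloid factor that the member Spi1 encodes, or to the AP-1 motif TGANTCA.
C1qb (chr4:136886201-136886450, minus strand): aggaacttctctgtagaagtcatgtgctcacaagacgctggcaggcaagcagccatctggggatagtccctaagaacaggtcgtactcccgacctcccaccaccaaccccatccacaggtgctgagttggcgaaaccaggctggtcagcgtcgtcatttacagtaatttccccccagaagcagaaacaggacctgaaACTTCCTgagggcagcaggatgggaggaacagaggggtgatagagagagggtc
C1qc (chr4:136892915-136893164, minus strand): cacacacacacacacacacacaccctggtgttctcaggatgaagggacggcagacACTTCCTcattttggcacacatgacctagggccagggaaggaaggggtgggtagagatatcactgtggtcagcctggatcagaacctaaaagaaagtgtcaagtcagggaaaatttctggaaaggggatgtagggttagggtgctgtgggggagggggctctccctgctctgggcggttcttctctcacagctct
Mrc1 (chr2:14229164-14229413, plus strand): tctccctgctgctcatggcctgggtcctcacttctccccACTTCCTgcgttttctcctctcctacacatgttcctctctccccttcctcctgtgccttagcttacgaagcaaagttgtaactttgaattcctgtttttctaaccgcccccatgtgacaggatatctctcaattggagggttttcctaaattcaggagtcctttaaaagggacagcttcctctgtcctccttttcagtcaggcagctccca
Cd68 (chr11:69666171-69666420, minus strand): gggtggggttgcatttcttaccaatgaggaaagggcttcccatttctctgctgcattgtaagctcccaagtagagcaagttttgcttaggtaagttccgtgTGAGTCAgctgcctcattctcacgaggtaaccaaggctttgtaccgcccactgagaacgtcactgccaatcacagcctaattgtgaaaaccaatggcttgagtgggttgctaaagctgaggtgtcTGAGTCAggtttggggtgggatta
RefSeq promoters were at hand for 30 of the 38 members, 35 promoters in all. AGGAAGT was found in 5 of the 35 (14.3%), those of C1qb, C1qc, Fcgr1, Mrc1 and Lyz2, against 7.69% of all 32851 promoters of that length. TGANTCA was found in the promoters of Cd68, Ms4a7, Itgax, Zbtb46 and Cybb (14.3% of 35, against 6.75% of all). The longer PU.1 core GAGGAAGT was found in C1qc alone (2.86%, against 2.44%). The composite ETS-IRF motif was found in both promoters of Clec7a alone (5.71%, against 2.3%). The promoters of Clec7a overlap and hold the same site, so by gene the motif was in 1 of 30. The motif AGGAAGT is contained in GAGGAAGT. Of the 5 genes with AGGAAGT, Fcgr1 and Lyz2 had WT and Y3 arrays that overlapped. Apoe, Cx3cr1, Cd163, Ms4a7 and Aif1 also lay lower on every Y3 array and had no such match, and 1 of the promoters of Ms4a7 holds the AP-1 motif shown for Cd68. Csf1r lay lower on every Y3 array too, but no promoter was at hand for it. These matches describe letters only.

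All 9 arrays carried the T cell signal that the labels name. The mean of 14 T cell and Treg genes, among them Foxp3, Cd3e and Cd4, lay between 9.21 and 9.40 on the log2 scale of the deposited signals on all arrays. Of these 14, Il2ra, the gene of another IL-2 receptor chain, fell in limma and 0 rose. Il2ra differed by -0.86 ± 0.15 in Y3/CD103-/- (adjusted p = 0.0258), where 0.281% of all genes fell. Over both Y3 genotypes it differed by -0.76 ± 0.13 (adjusted p = 0.0178), where 0.485% did. Itgae had a WT mean of 7.93 ± 0.12 (SD, n = 3), a Y3 mean of 9.32 ± 0.20 and a mean of 6.52 ± 0.42 on the arrays labelled as lacking CD103, the lowest of the 3. Il2rb, which encodes IL-2Rβ, had means of 9.19 ± 0.22, 8.15 ± 0.32 and 8.16 ± 0.31 in the same order. The number of arrays limits the precision, and for the median gene of the 12792 tested a log2 difference carried a 95% interval of 0.45 in each direction. WT array 1 correlated over all features more closely with Y3 array 1 (0.9501) and Y3 array 3 (0.9453) than with WT arrays 2 (0.9293) and 3 (0.9231). Intestinal epithelial genes also moved with the groups: the mean of 26 of them ranged from 4.98 to 6.19 on the WT arrays, 4.02 to 4.85 on those of Y3 and 3.88 to 5.51 on those of Y3/CD103-/-. Their median log2 difference in Y3 against WT was -1.02. At an unadjusted p under 0.05 in limma, 11 of 25 tested lay lower there and 0 higher (3.6% and 13.4% of all genes). None passed there at an adjusted p under 0.05, and Fabp2 alone did over both Y3 genotypes (-2.67 ± 0.49, adjusted p = 0.0263). The mean of 11 B and plasma cell genes ranged from 3.58 to 3.78, 3.37 to 3.60 and 3.55 to 3.73. Of 18 neutrophil, mast cell and eosinophil genes, only Mpo exceeded the filter on dim signals, and their mean ranged from 2.38 to 2.60, 2.08 to 2.28 and 2.39 to 2.51, lowest on the Y3 arrays. The part of these cells in the results on myeloid genes was not tested.

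Members differed in brightness, and 28 of the 37 passed the filter on dim signals, where 12792 of all 22180 genes did. The median of an array is taken over all its features, also those paired with no gene. Of the 37 members, 19 exceeded the median signal of their array on all 9 arrays, 9 on 3 to 8 arrays and 9 on fewer than 3. The last 9 (Fcgr1, Mrc1, Cd163, Cd14, Itgam, Csf3r, Flt3, Siglech and Clec10a) were left out of the tests, and 28 members were tested. All 8 shared myeloid genes passed that filter, as did 10 of 13 macrophage, 5 of 8 monocyte and 5 of 8 dendritic genes.

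In Y3, the median of the macrophage members lay below that of WT and the median of the dendritic members did not. The dendritic list was dim, with WT means of 3.40 to 3.58 beside WT array medians of 3.18 to 3.23. The macrophage means were 3.83 to 4.31 on the WT arrays. The part of this brightness in the contrast of the 2 roles was not tested. A list of 28 further dendritic genes had a lower mean on every Y3 array (4.12 to 4.16) than on every WT array (4.26 to 4.31), and the macrophage mean minus the dendritic mean overlapped between WT and Y3. The median log2 difference over all members of a role was -0.55 for the 13 macrophage genes and -0.26 for the 8 monocyte and inflammatory genes. It was -0.23 for the 8 shared genes and 0.00 for the 8 dendritic genes. Over all 22180 genes it was 0.02, and over the 12792 genes tested it was 0.15, which is above the dendritic median. Over all features, Y3 arrays 1 and 3 had a wider spread of signals (SD 1.87 and 1.88) than the other arrays (1.70 to 1.77). The median of the shared genes ranged from -0.39 (without WT array 1) to -0.10 (without Y3 array 1). Of the 37 members, 14 had every Y3 array below every WT array (8.96% of all genes did), of which 9 were macrophage, 3 monocyte, 2 shared and 0 dendritic genes. The 14 include Mrc1, Cd163 and Cd14, which were below the filter on dim signals. In the other direction 1 member, Cd68, had every Y3 array above every WT array (12.1% of all genes did). In limma, 0 of the 28 members tested passed at an adjusted p under 0.05, where 0.79% of all genes did (0.172% lower and 0.618% higher). At an unadjusted p under 0.05, 11 members lay lower and 1 higher, where 3.6% and 13.4% of all genes did. The count of 0 became 6, all lower, without WT array 1, and 1 (Il1b) without Y3/CD103-/- array 3, and stayed at 0 without any 1 of the other arrays. The share of all genes passing in these fits was not counted, so the 6 have no background share beside them. Without WT array 1 the members that passed were Csf1r, C1qb, Apoe, Ms4a7, Il1b and Tyrobp (adjusted p from 0.0176 to 0.049). Fewer cells of a type and less RNA per cell cannot be told apart in such bulk samples.

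**Figure D1:**
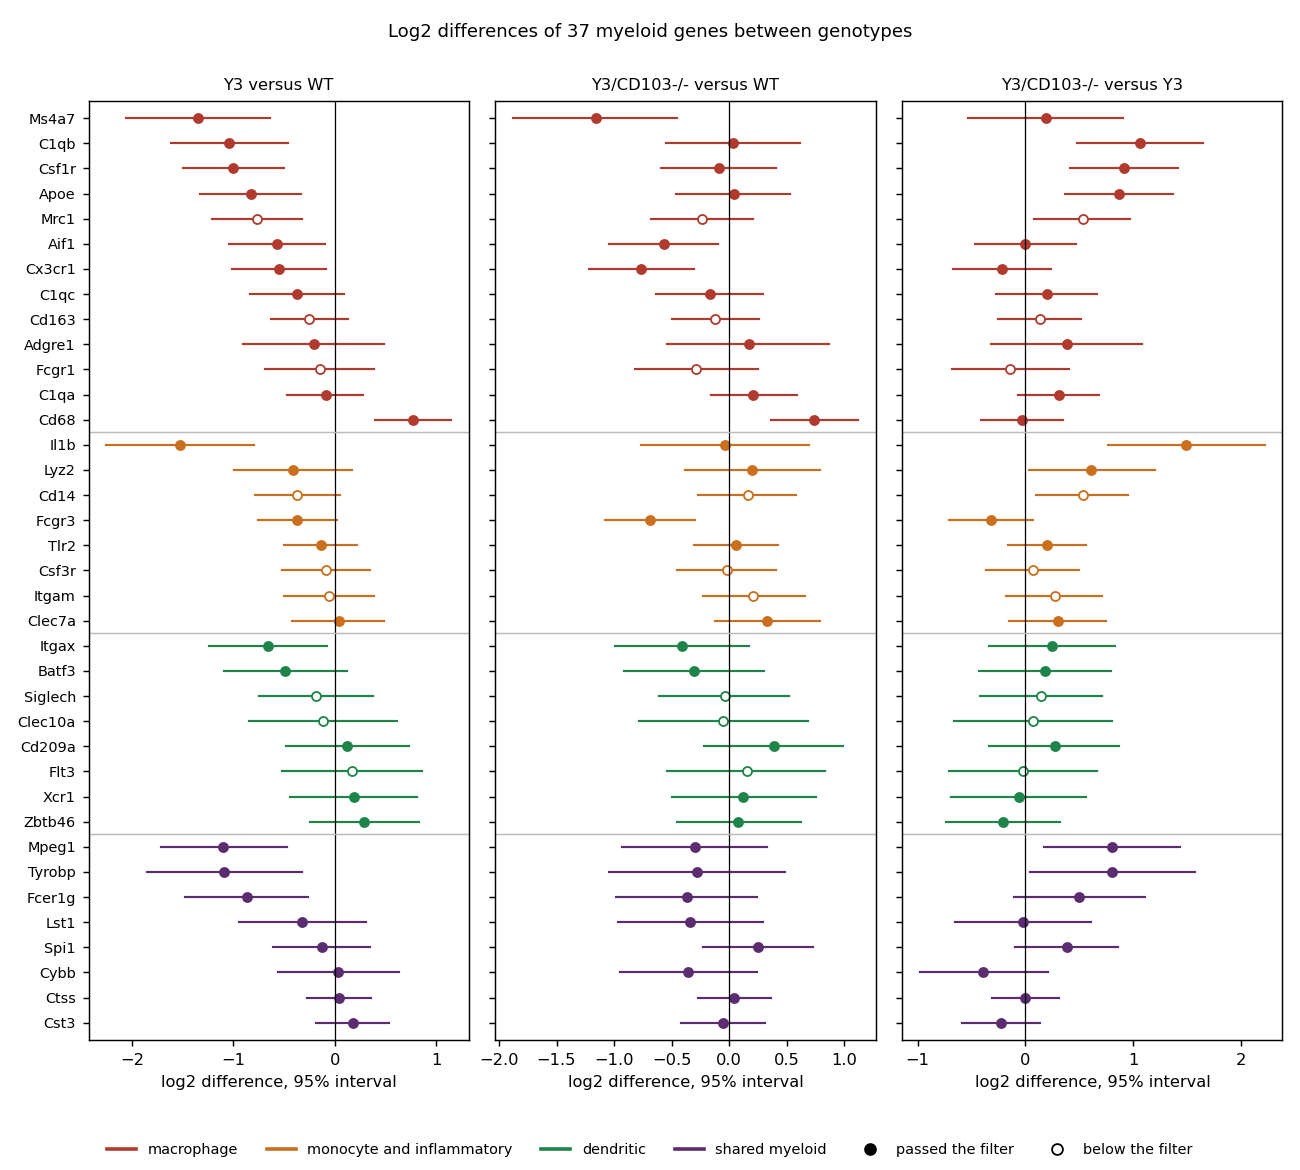
Log2 differences with 95% intervals (horizontal axis) of the 37 members (vertical axis, grouped by role) for the 3 comparisons between single genotypes. Filled points passed the filter on dim signals. In the left panel the macrophage genes run from Ms4a7 at -1.35 to Cd68 at 0.77, and the dendritic genes from Itgax at -0.66 to Zbtb46 at 0.29.

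Among macrophage genes, Csf1r, the receptor of the growth factors CSF1 and IL-34, stood at log2 4.20, 4.68 and 4.88 on WT arrays 1 to 3, at 3.64, 3.32 and 3.79 on the Y3 arrays and at 4.60, 4.73 and 4.14 on the Y3/CD103-/- arrays. The Y3 arrays lay below all the others, and the other groups overlapped. The difference was -1.0 ± 0.23 (SE) in Y3 against WT, a 2.00-fold lower signal that did not pass (adjusted p = 0.0761). It was -0.09 in Y3/CD103-/- against WT (95% interval -0.59 to 0.41, adjusted p = 0.903). Against Y3, which is the group shared with the first comparison, Y3/CD103-/- lay 0.91 ± 0.23 higher (adjusted p = 0.308).

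The 3 chains of C1q, which recognizes immune complexes and dying cells and is made in the gut mainly by macrophages, differed in size of difference. C1qb stood at 4.63, 5.76 and 5.22 for WT, 4.23, 3.88 and 4.39 for Y3 and 5.42, 5.19 and 5.08 for Y3/CD103-/-, so that Y3 lay below both other groups. Its difference was -1.04 ± 0.26 in Y3 against WT (adjusted p = 0.10) and 0.03 in Y3/CD103-/- against WT (95% interval -0.55 to 0.61). C1qc also lay lower on each Y3 array (3.62 to 3.71) than on each WT array (3.82 to 4.22), with a difference of -0.37 whose 95% interval was -0.84 to 0.09. C1qa spanned 4.30 to 4.45 on the WT arrays, 4.23 to 4.34 on those of Y3 and 4.35 to 4.91 on those of Y3/CD103-/-, and its difference of -0.09 in Y3 (95% interval -0.47 to 0.28) had WT and Y3 arrays that overlapped. The difference between the chains was not tested.

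Apoe, the apolipoprotein that carries lipids out of macrophages, had the pattern of Csf1r. It stood at 4.59, 5.16 and 5.55 for WT, 4.12, 4.44 and 4.25 for Y3 and 5.18, 4.99 and 5.24 for Y3/CD103-/-. The Y3 difference from WT was -0.83 ± 0.23 (adjusted p = 0.115), and that of Y3/CD103-/- from WT 0.04 (95% interval -0.46 to 0.53). Mrc1, the mannose receptor CD206 of tissue macrophages, was dim, at 2.85 to 3.45 on the WT arrays, 2.19 to 2.59 on those of Y3 and 2.81 to 3.08 on those of Y3/CD103-/-, with Y3 again below both other groups.

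Other macrophage genes lay lower in both Y3 genotypes. Ms4a7, a tetraspan membrane protein of resident macrophages, stood at 3.96, 5.02 and 5.39 for WT, 3.00, 3.63 and 3.69 for Y3 and 3.50, 3.63 and 3.75 for Y3/CD103-/-. All 6 arrays of the Y3 genotypes lay below all WT arrays, by 2.55-fold in Y3 (adjusted p = 0.0891) and 2.24-fold in Y3/CD103-/- (adjusted p = 0.143). Taken against WT together, the 6 arrays differed by -1.26 ± 0.28 (adjusted p = 0.0530; 0.0109 without WT array 1). Cx3cr1, the fractalkine receptor of intestinal macrophages, which some T cells also express, stood at 4.69, 4.71 and 5.35 on the WT arrays, 4.28, 4.29 and 4.53 on those of Y3 and 4.0, 4.41 and 4.05 on those of Y3/CD103-/-. Each Y3 genotype lay below WT without overlap, with a difference of -0.66 ± 0.18 over both Y3 genotypes (adjusted p = 0.104). Aif1, the actin-bundling protein IBA1, stood at 3.66 to 4.21 for WT, 3.00 to 3.59 for Y3 and 3.04 to 3.41 for Y3/CD103-/- (-0.57 ± 0.18 over both Y3 genotypes, adjusted p = 0.164). The scavenger receptor gene Cd163 was below its array's median on all 9 arrays, between 1.51 and 2.12. Adgre1, which encodes a classical macrophage surface marker (2.62 to 4.20 over all arrays), and the high-affinity Fc receptor gene Fcgr1 (2.27 to 3.31) had groups that overlapped in Y3 against WT.

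Cd68, a lysosomal glycoprotein long used as a macrophage marker and also present at low levels in lymphocytes, went the other way. It stood at 5.34, 5.67 and 5.19 on the WT arrays, 6.25, 5.97 and 6.29 on those of Y3 and 6.09, 6.23 and 6.10 on those of Y3/CD103-/-. Every array of either Y3 genotype lay above every WT array. Over both Y3 genotypes it rose 1.69-fold (log2 0.76 ± 0.15, adjusted p = 0.0320), the only one of the 28 members to pass in that comparison, where 1.77% of all genes passed (0.485% lower and 1.29% higher). In that comparison 5 of the 37 members had all 6 arrays below all WT arrays (2.55% of all genes did), and Cd68 alone had them above (4.15% of all genes did). The 5 include Cd163, which was below the filter on dim signals. Leaving out 1 array ended this call in 6 of 9 cases, with the difference then between 0.65 and 0.77. The adjusted p from limma was then 0.0828 or 0.108 (WT array 1 or 3 left out), 0.0896 or 0.0899 (array 1 or 3 of Y3) and 0.0578 or 0.0620 (array 2 or 3 of Y3/CD103-/-). It was 0.0674 with no filter on dim signals. In single comparisons Cd68 did not pass, with adjusted p = 0.0721 in Y3 and 0.0801 in Y3/CD103-/-. Of 13 oxidase and endosomal genes tested, 1 passed over both Y3 genotypes, the lysosomal protease gene Ctsa (0.74 ± 0.14, adjusted p = 0.0272). At an unadjusted p under 0.05 in limma, 3 of them lay higher and 2 lower (12% and 4.39% of all genes). The median difference of the 13 was 0.09, as it was for all genes tested.

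**Figure D2:**
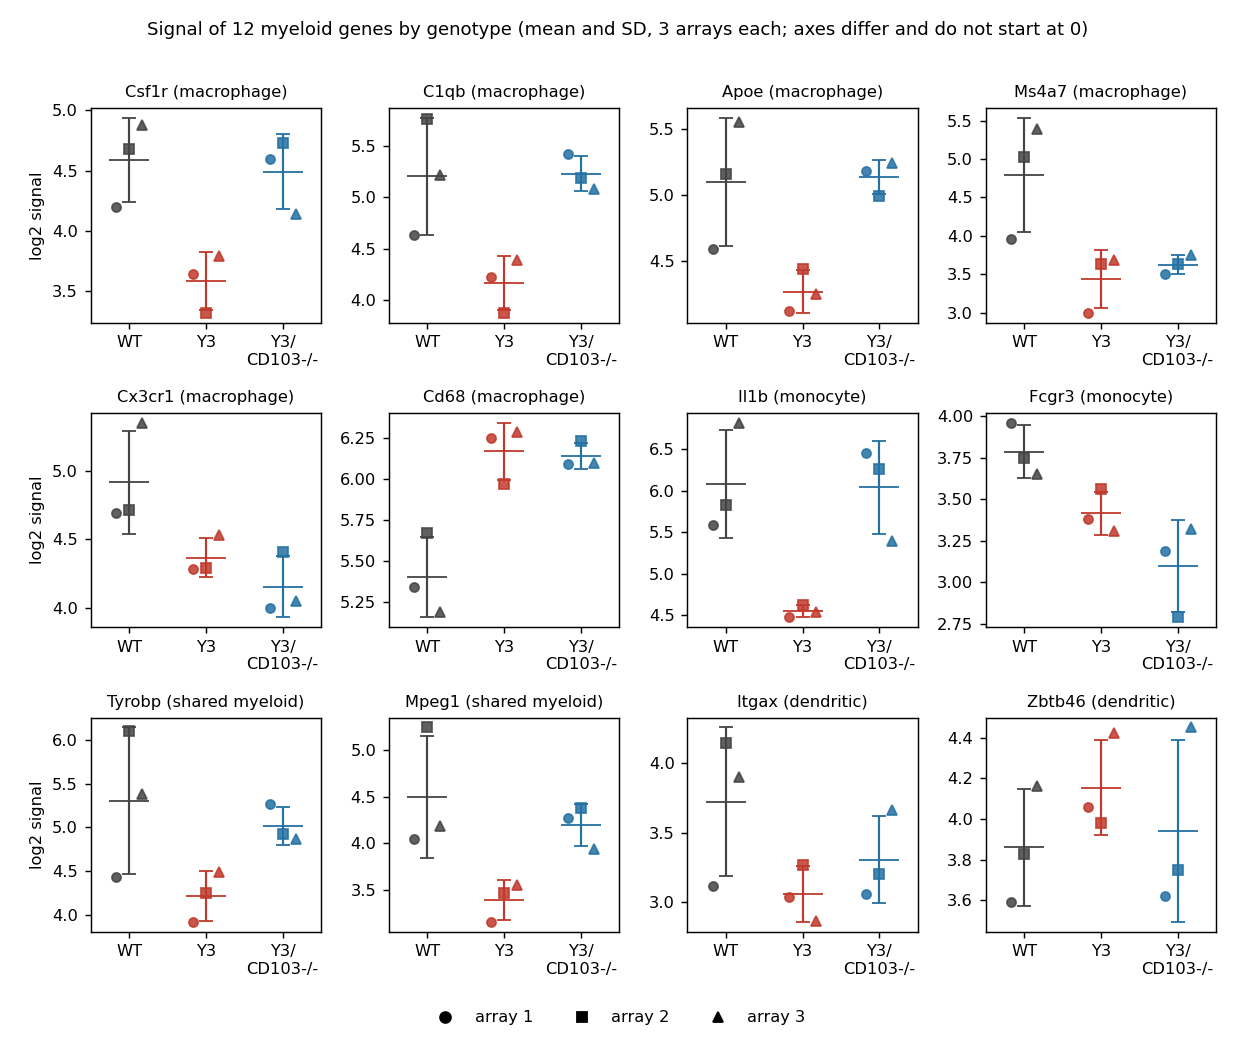
Log2 signal (vertical axes, which differ in range and do not start at 0) of 12 members in WT, Y3 and Y3/CD103-/-, with a point for each array and bars for the mean and SD of 3 arrays. Csf1r, C1qb, Apoe, Il1b and Mpeg1 are lowest on the Y3 arrays alone, Ms4a7, Cx3cr1 and Fcgr3 are low in both Y3 genotypes, and Cd68 is high in both.

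Among monocyte and inflammatory genes, Il1b, which encodes the inflammatory cytokine IL-1β, had the largest difference of any member. It stood at 5.59, 5.83 and 6.82 for WT, 4.48, 4.63 and 4.54 for Y3 and 6.46, 6.26 and 5.40 for Y3/CD103-/-. The Y3 arrays lay close together and below all the others. The signal was 2.89-fold lower in Y3 than in WT (log2 -1.53 ± 0.33, adjusted p = 0.0665) and 2.81-fold higher in Y3/CD103-/- than in Y3 (log2 1.49 ± 0.33, adjusted p = 0.308). Fcgr3, the low-affinity receptor for IgG, stood at 3.96, 3.75 and 3.65 on the WT arrays, 3.38, 3.56 and 3.31 on those of Y3 and 3.19, 2.79 and 3.32 on those of Y3/CD103-/-, below WT in both. The Fcgr3 difference was -0.37 ± 0.18 in Y3 (adjusted p = 0.316) and -0.69 ± 0.18 in Y3/CD103-/- (adjusted p = 0.110).

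Differences of Lyz2 and Cd14 were as large as that of Fcgr3 in Y3. Lyz2, the lysozyme of phagocytes, stood at 5.45 to 5.90 for WT, 4.91 to 5.62 for Y3 and 5.30 to 6.24 for Y3/CD103-/-, with groups that overlapped (-0.41 in Y3, 95% interval -0.99 to 0.17). Cd14, the co-receptor for bacterial lipopolysaccharide, was below the array median on all arrays, yet its Y3 values (2.32 to 2.58) lay below those of WT (2.65 to 3.15) and Y3/CD103-/- (2.79 to 3.12), with a difference of -0.37 in Y3 against WT. The integrin gene Itgam (2.33 to 3.01 over all arrays), the G-CSF receptor gene Csf3r (2.24 to 2.82), the β-glucan receptor gene Clec7a (2.78 to 3.61) and Tlr2, a receptor for bacterial lipoproteins (3.10 to 3.57), had overlapping groups. The 95% intervals of their Y3 differences reached no further than -0.52 and 0.49.

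The 8 dendritic genes with a feature of their own had no member whose Y3 and WT arrays were apart, and their differences lay on both sides of 0. Only 3 of the 8 exceeded the median of their array on all 9 arrays. The feature that Clec9a shares with Clec1b was dim and was not counted. It stood at 2.22, 2.64 and 2.54 for WT, 1.96, 2.11 and 2.14 for Y3 and 2.48, 1.94 and 1.75 for Y3/CD103-/-. Every Y3 array thus lay below every WT array for that feature, and which of the 2 genes it reads cannot be told. Itgax, the CD11c integrin chain, stood at 3.12, 4.14 and 3.90 on the WT arrays, 3.04, 3.27 and 2.87 on those of Y3 and 3.06, 3.2 and 3.66 on those of Y3/CD103-/-. WT array 1 lay among the Y3 arrays, and the Y3 difference was -0.66 ± 0.26 (adjusted p = 0.243). CD11c is also carried by macrophages and some T cells. Zbtb46, a transcription factor that marks conventional dendritic cells, stood at 3.59, 3.83 and 4.16 for WT, 4.06, 3.98 and 4.42 for Y3 and 3.62, 3.75 and 4.45 for Y3/CD103-/-, a Y3 difference of 0.29 (95% interval -0.24 to 0.83). Xcr1, the chemokine receptor of cross-presenting dendritic cells, spanned 3.48 to 4.20 on the WT arrays, 3.76 to 4.16 on those of Y3 and 3.25 to 4.37 on those of Y3/CD103-/- (Y3 difference 0.19, 95% interval -0.44 to 0.81).

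Batf3, which cross-presenting dendritic cells need and which activated T cells express too, spanned 3.03 to 3.93 in WT and 2.87 to 3.22 in Y3 (-0.49, 95% interval -1.09 to 0.12). Cd209a, a lectin of monocyte-derived dendritic cells, spanned 4.12 to 5.15 in WT and 4.52 to 5.29 in Y3 (0.12, 95% interval -0.48 to 0.73). A dimmer feature of Cd209a, not used, had means of 2.60, 2.63 and 3.00 in WT, Y3 and Y3/CD103-/-. The growth factor receptor gene Flt3 (2.28 to 3.34 over all arrays), Siglech of plasmacytoid dendritic cells (2.16 to 3.2) and the lectin gene Clec10a (1.82 to 3.06) did not pass the filter. Their intervals in Y3 reached from -0.85 to 0.86.

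Shared myeloid genes divided. Tyrobp, the adaptor DAP12 of myeloid and NK cell receptors, stood at 4.43, 6.10 and 5.38 for WT, 3.92, 4.25 and 4.49 for Y3 and 5.27, 4.92 and 4.87 for Y3/CD103-/-. WT array 1 lay just below Y3 array 3, so the groups overlapped, and the difference of -1.09 ± 0.35 did not pass (adjusted p = 0.168; 0.0319 without WT array 1). Fcer1g, the signalling chain of Fc receptors, stood at 4.14, 4.13 and 5.31 on the WT arrays, 3.74, 3.58 and 3.64 on those of Y3 and 4.03, 4.20 and 4.24 on those of Y3/CD103-/-, with Y3 below both other groups (-0.87 ± 0.28 against WT, adjusted p = 0.167). Mpeg1, the pore-forming perforin-2 of phagocytes, stood at 4.05, 5.24 and 4.19 for WT, 3.16, 3.47 and 3.56 for Y3 and 4.27, 4.38 and 3.94 for Y3/CD103-/-, again lowest in Y3 (-1.10 ± 0.28, adjusted p = 0.106).

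The other shared genes had intervals that included 0. The protease gene Ctss spanned 8.42 to 8.67 over all arrays, with a Y3 difference of 0.04 (95% interval -0.27 to 0.36). Cst3, the protease inhibitor cystatin C, spanned 7.37 to 7.92 (Y3 difference 0.18, 95% interval -0.19 to 0.54). Cybb, the catalytic chain of the phagocyte oxidase, spanned 5.23 to 6.29 (0.03, 95% interval -0.56 to 0.63). Spi1 spanned 3.45 to 4.30 (-0.13, 95% interval -0.61 to 0.35), and Lst1, a leukocyte membrane adaptor, 3.87 to 5.02 (-0.32, 95% interval -0.95 to 0.31).

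**Figure D3:**
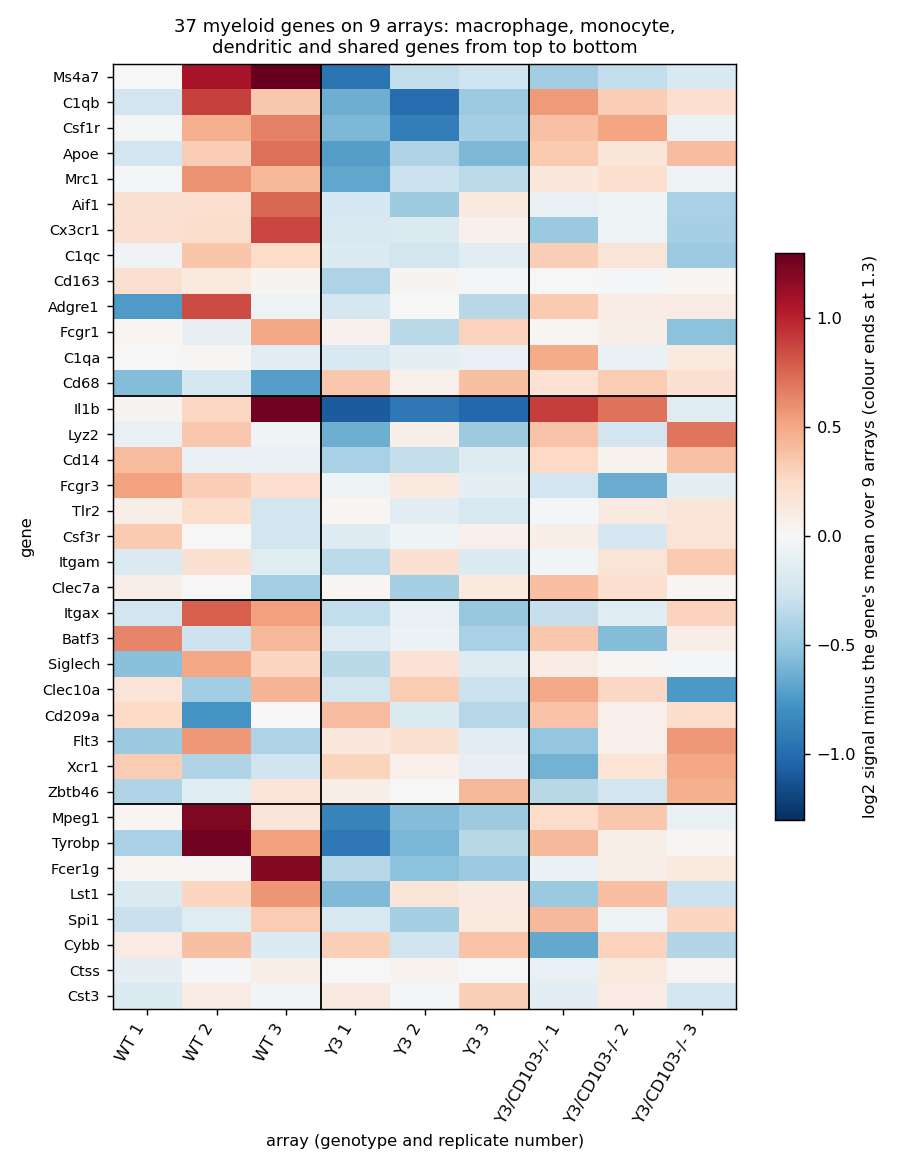
Log2 signal of the 37 members (rows, grouped by role) on the 9 arrays (columns), as the difference from each gene's mean over all arrays, with colour ending at 1.3. The Y3 columns are blue for the upper macrophage rows, for Il1b and for Mpeg1, Tyrobp and Fcer1g, while the dendritic rows have no block of 1 colour.

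The list means put macrophage and dendritic genes side by side. The mean of the 13 macrophage genes was 3.83, 4.29 and 4.31 on the WT arrays, 3.57, 3.60 and 3.78 on the Y3 arrays and 4.05, 4.02 and 3.83 on the Y3/CD103-/- arrays. All Y3 arrays lay below the other arrays. The mean of the 8 dendritic genes was 3.40, 3.41 and 3.58 on the WT arrays, 3.41, 3.49 and 3.24 on those of Y3 and 3.37, 3.39 and 3.60 on those of Y3/CD103-/-, with groups that overlapped. The macrophage mean minus the dendritic mean was 0.68 ± 0.23 for WT, 0.27 ± 0.23 for Y3 and 0.52 ± 0.25 for Y3/CD103-/-, and Y3 array 3 (0.54) lay above WT array 1 (0.43), so that this contrast of roles was within the spread of the arrays. Centring each array on the median of the genes tested moved the Y3 difference of all genes from 0.02 to -0.14 and the dendritic median from 0.00 to -0.17, while the macrophage median went to -0.72.

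**Figure D4:**
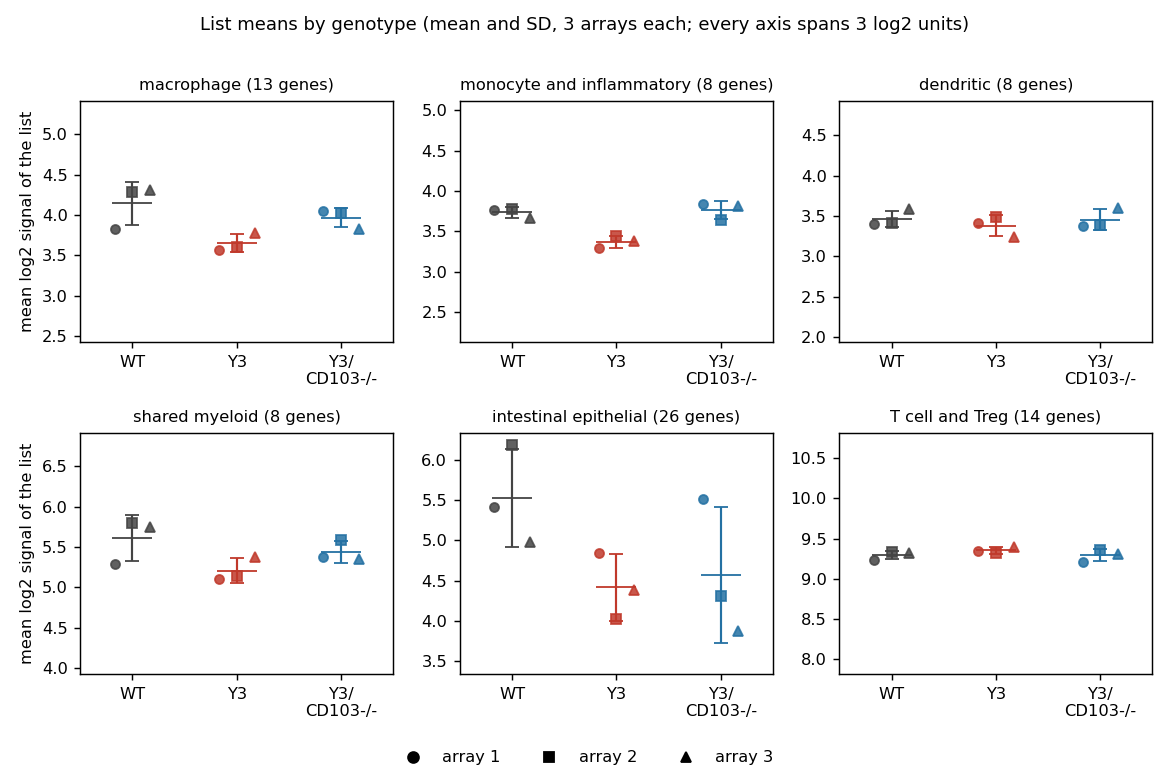
Mean log2 signal (vertical axes, each spanning 3 units) of 4 member lists, of 26 intestinal epithelial genes and of 14 T cell and Treg genes in WT, Y3 and Y3/CD103-/-, with a point for each array and bars for the mean and SD of 3 arrays. The macrophage and monocyte means are lowest in Y3, the dendritic and T cell means overlap, and the epithelial mean of WT array 2 is 6.19.

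In Y3/CD103-/- against WT, the medians of macrophage and shared genes lay below that of all genes. Of the 37 members, 5 had all Y3/CD103-/- arrays below all WT arrays (6.55% of all genes did), namely Cx3cr1, Cd163, Ms4a7, Aif1 and Fcgr3, and Cd68 had them all above (7.88% of all genes did). Of these, Cd163 was below the filter on dim signals. In limma, 0 of 28 passed, where 0.836% of all genes did (0.281% lower and 0.555% higher), with 4 lower and 1 higher at an unadjusted p under 0.05 (5.35% and 7.9% of all genes). The count of 0 became 1 (Ms4a7, adjusted p = 0.0319) without WT array 1, a fit for which the share of all genes passing was not counted. Medians were -0.12 for macrophage, 0.11 for monocyte, 0.02 for dendritic and -0.29 for shared genes, against 0.00 for all genes. The median of the shared genes was 0.03 without WT array 2. The macrophage median ranged from -0.29 (without WT array 1) to -0.01 (without Y3/CD103-/- array 3).

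In Y3/CD103-/- against Y3, macrophage, monocyte and shared genes were among those higher on every array. Of the 37, 11 had all Y3/CD103-/- arrays above all Y3 arrays (7.49% of all genes did): Csf1r, C1qa, C1qb, Apoe, Adgre1, Mrc1, Cd14, Il1b, Tyrobp, Fcer1g and Mpeg1, and 0 had them all below (9.49% of all genes did). Of the 11, Mrc1 and Cd14 were below the filter on dim signals. In limma, 0 of 28 passed, where 0.00782% of all genes, Itgae alone, did. At an unadjusted p under 0.05, 7 lay higher and 0 lower (1.78% and 8.12% of all genes). Medians were 0.20 for macrophage, 0.28 for monocyte, 0.11 for dendritic and 0.19 for shared genes, against -0.01 for all genes. The Y3 arrays enter both this comparison and that of Y3 with WT, so the 2 sets of values are not independent. Epithelial genes had a list mean of 4.42 ± 0.42 in Y3 and 4.57 ± 0.84 in Y3/CD103-/-.

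Other myeloid genes were read in lists chosen with earlier results of these data known. Of all genes tested, 0.172% fell in Y3, 0.281% in Y3/CD103-/- and 0.485% over both Y3 genotypes, while 0.618%, 0.555% and 1.29% rose. Of 21 further macrophage and monocyte genes tested, 0 rose, 1 fell in Y3, 1 in Y3/CD103-/- and 2 over both Y3 genotypes. These were Il10ra, the IL-10 receptor chain (-1.01 ± 0.19 in Y3, adjusted p = 0.0393, -1.72 ± 0.19 in Y3/CD103-/-, adjusted p = 0.00356, and -1.36 ± 0.16 over both, adjusted p = 0.00389), and the chemokine receptor Ccr2 (-1.04 ± 0.21 over both, adjusted p = 0.0362), both of which T cells also express. The median Y3 difference of all 39 such genes on the array was -0.29. Of 19 further dendritic genes, Cd86, a costimulatory ligand of antigen-presenting cells, fell over both Y3 genotypes (-1.20 ± 0.23, adjusted p = 0.0275), and the list also holds Itgae, the gene targeted here. The median Y3 difference of the 28 further dendritic genes on the array was -0.08. As a list they averaged 4.28, 4.26 and 4.31 on the WT arrays, 4.13, 4.12 and 4.16 on the Y3 arrays and 4.14, 4.06 and 4.14 on the Y3/CD103-/- arrays. Every array of either Y3 genotype thus lay below every WT array for that list, unlike for the 8 dendritic members.

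Of 11 myeloid transcription factors tested, 0 passed in limma in any comparison, with Irf8, a factor of dendritic cells and monocytes, nearest at -0.52 ± 0.13 over both Y3 genotypes (adjusted p = 0.0872) and 3 lower and 1 higher at an unadjusted p under 0.05, where 4.39% and 12% of all genes were lower and higher over both Y3 genotypes. Of 8 Fc, complement and phagocytic receptor genes, 0 passed (1 lower and 0 higher at an unadjusted p under 0.05), with the complement receptor C3ar1 at -0.83 ± 0.26 (adjusted p = 0.154). Of 4 growth factor receptors and ligands, 0 passed (0 lower and 1 higher at an unadjusted p under 0.05), with Kit at 0.71 ± 0.23 (adjusted p = 0.160). Among 8 class II genes, H2-Aa fell in Y3 (-1.80 ± 0.31, adjusted p = 0.0264), where 0.172% of all genes fell. It stood at 5.87, 7.12 and 6.77 on the WT arrays, 4.34, 5.10 and 4.93 on those of Y3 and 6.32, 5.96 and 5.84 on those of Y3/CD103-/-, lowest in Y3 as Csf1r and C1qb were. H2-Ob, a chain of the class II modulator DO, fell in Y3/CD103-/- (-1.04 ± 0.14, adjusted p = 0.0110), where 0.281% of all genes fell. It also fell over both Y3 genotypes (-0.63 ± 0.12, adjusted p = 0.0327), where 0.485% did. The class II list did not share the pattern of H2-Aa. Its median difference was -0.21 in Y3 and -0.46 in Y3/CD103-/- against WT, and -0.20 in Y3/CD103-/- against Y3. In that last comparison 3 lay lower and 3 higher at an unadjusted p under 0.05 in limma (8.12% and 1.78% of all genes).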

How the data were processed

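The deposited values are log2 signals, 1 column per array, produced by the authors by RMA, as the submitters' processing notes list; the sources used here give neither version, settings nor build. RMA normalizes arrays together, which can shrink differences shared by many genes. Of 39137 features, 23521 are paired with 1 gene, 1814 with several and 13802 with none, by GEO's platform annotation; 23328 were found by gene identifier in a GRCm38.p6 table and 0 symbols changed. The brightest feature per gene was used. A gene was tested if it exceeded its array's median on at least 3 of 9 arrays (12792 of 22180). Group means were fitted to all 9 arrays with limma 3.58.1 (lmFit, eBayes) in R 4.3.3 with no block; 4 contrasts, the last of both Y3 genotypes together against WT, were tested 2-sided with Benjamini-Hochberg adjustment over all genes, and a gene rose or fell at an adjusted p under 0.05. Errors are SD over 3 arrays or SE from limma. Members are described by counts and medians without a test over the list, and "not overlapping" counts use all genes without a filter. The fit was tested on simulated data. All members, and of each other list the genes called or, with none called, the 2 of smallest p over both Y3 genotypes, were open to naming, with Foxp3, Cd3e, Cd4, Itgae and Il2rb as a check of the labels. Members and lists were chosen with earlier results of these data known. Alternatives changed the filter, features, scaling, variance model, array weights, block, threshold and arrays.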

Additional observations from a re-analysis of the deposited data

How the results depend on the processing

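In Y3 versus WT, where 0 members passed in limma, 4 passed at an adjusted p under 0.1 (3 lower, 1 higher). With a stricter filter (above log2 5 on at least 3 arrays), 4 of the 10 members tested passed (3 lower, 1 higher). With an intensity trend 5 passed (4 lower, 1 higher), and with array weights 6 (5 lower, 1 higher). The higher member was Cd68 each time. With arrays centred on the median of the genes tested, a setting chosen after seeing the data, 1 passed, lower. The shares of all genes passing with a changed filter, threshold, trend, weights or arrays were not counted. In Y3/CD103-/- versus WT, 1 (Cd68, higher) passed with the stricter filter, with the trend or at an adjusted p under 0.1. Over both Y3 genotypes the 1 member that passed, Cd68, did not pass without a filter (0 members). Nor did it pass with Y3 arrays 1 and 3 averaged (0), a pair most alike at a correlation of 0.9793 and averaged after seeing the data. With the trend or at an adjusted p under 0.1, 2 members passed (1 lower, 1 higher). With each array left out in turn, the counts ranged from 0 to 6 in Y3 versus WT, 0 to 1 in Y3/CD103-/- versus WT, 0 to 0 in Y3/CD103-/- versus Y3 and 0 to 1 over both Y3 genotypes. Arrays of the same replicate number did not deviate together (correlations of -0.04 to 0.11 over 9 pairs, against -0.14 to 0.07 over 18 pairs of different number), so the numbers were not taken as pairs. With the replicate number as a block, 0 members passed in each single comparison and 1 over both Y3 genotypes, then Ms4a7 (adjusted p = 0.0280) and not Cd68 (0.0690). Medians of the macrophage genes ranged from -0.66 to -0.34 (Y3) and -0.65 to -0.25 (both Y3 genotypes) with an array left out, those of the monocyte genes from -0.36 to -0.17 and -0.18 to 0.00, those of the dendritic genes in Y3/CD103-/- from -0.12 to 0.08 and those of the shared genes there from -0.44 to 0.03. Without the members that T or NK cells also use, the dendritic medians were 0.15 (Y3) and 0.16 (both). Centred on the genes tested, the monocyte medians were -0.42 (Y3), 0.43 (Y3/CD103-/- versus Y3) and -0.17 (both), and the dendritic medians -0.17 (Y3) and 0.26 (Y3/CD103-/- versus Y3). Quantile normalization moved the Y3 median of all genes tested from 0.15 to 0.04. The count of 14 members with Y3 below WT was 14 to 18 with a WT or Y3 array left out, where 11.6% to 17% of all genes were, and dendritic genes then numbered 0 to 2. The count of 1 member with Y3 above WT was then 1 to 3 (3 without WT array 2 or 3), where 14.5% to 21.6% of all genes were. The cause of these shifts was not tested. Dim signals limit 9 members, for which no p-value is given. They still enter the medians and the counts of groups that do not overlap.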
